A study of Mus musculus with 4514 samples.

Results

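The cells described here are single hepatocytes labelled as a Usf1 knockout at the stage P60+14d, chosen by label alone. They are 4 times 39 cells, out of 4514 samples in a series on mouse hepatocyte maturation, and were set against 4 times 46 cells labelled WT at that stage. The leading genes were then checked against the cells labelled as an Nr2f2 knockout at that stage. All 3 groups, the WT cells included, carry the genotype Rosa-Cas9, an allele that supplies the Cas9 nuclease, and the labels name no other allele. The stage label gives postnatal day 60 and a further 14 days. The sources used here give neither the guide and its delivery nor the strain, the hour of collection or the number of animals. Because no label names an animal, the cells of a group were treated as 1 pool. The comparison at this stage therefore has 1 pool on each side, and no p-value is given for it. Further context came from 63 cells labelled Usf1-KO and the cells labelled Nr2f2-KO and WT at P12+40d, also Rosa-Cas9. Bulk hepatocyte libraries of P60 and pools of single cells from P0 to P30 were used as well.

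USF1 is a helix-loop-helix transcription factor that binds the E-box CACGTG, usually as a dimer with USF2, and it is known in liver for activating genes of glucose use and fat synthesis. SREBF1 is the master activator of fatty acid synthesis genes and responds to insulin. CYP7A1 is the rate-limiting enzyme of bile acid synthesis and is made mainly by pericentral hepatocytes, those around the central vein. Periportal hepatocytes lie where portal blood enters the lobule and carry more of the gluconeogenic enzymes. The design text gives the functions of transcription factors in maturation as the question behind the knockouts.

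Usf1 mRNA, which would check the label, was not lower. Usf1 (chr1:171411307-171418954, GRCm38.p6) averaged 115.4 CPM in Usf1-KO cells, 104.6 CPM in Nr2f2-KO cells and 68.2 CPM in WT cells, where CPM are a cell's counts scaled to 1000000. Pooled counts gave 116.6 CPM (95% Poisson interval 114.7 to 118.5) in the Usf1-KO pool and 68.6 CPM in the WT pool. Such intervals cover counting error only, since amplified reads are not independent molecules. Usf1 was counted in 94.9% of Usf1-KO cells (exact binomial interval 90.15 to 97.76) and in 97.8% of WT cells (94.53 to 99.4). A gene-level count does not read whether a gene was cut, and Usf1-KO below means only the cells so labelled. Nr2f2, the target of the other knockout, averaged 23.7 CPM in Usf1-KO cells, 22.9 CPM in Nr2f2-KO cells and 45.7 CPM in WT cells, so it does not separate the knockout labels either. Usf2, the dimer partner, averaged 76.3 CPM in Usf1-KO cells, 69.1 CPM in Nr2f2-KO cells and 100.9 CPM in WT cells, and its runs of cells, described below, overlapped between Usf1-KO and each other pool.

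The Usf1-KO pool held 124425503 counts, the Nr2f2-KO pool 126776724 and the WT pool 137580291, with 254635 to 1423016 counts per cell. Each cell was its own library, and 0 pairs of count columns were identical. The 10 hepatocyte markers summed to a mean of 114474 CPM per Usf1-KO cell, 103020 CPM per Nr2f2-KO cell and 103486 CPM per WT cell, and 0 of them were at 0 in any pool. Macrophage markers summed to 9.52 CPM in Usf1-KO, 1.92 CPM in Nr2f2-KO and 4.52 CPM in WT cells, and endothelial markers to 19.6, 8.03 and 34.9 CPM in the same order. A Y-linked gene was counted in every cell of the 3 pools. Xist was counted in 2 Usf1-KO, 4 Nr2f2-KO and 13 WT cells, and without these cells 93 genes were at least 2-fold higher and 99 lower than in WT, in place of the 91 and 97 given below.

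The pools were not uniform along the numbers that the labels give their cells. Each pool was therefore also read as 4 runs of consecutive label numbers, of 39 cells each for Usf1-KO, 40 or 41 for Nr2f2-KO and 46 for WT. What the runs stand for is not stated, and they are not replicates. Srebf1 averaged 69.97, 46.2, 45.3 and 57.6 CPM in the 4 Usf1-KO runs and 85.3, 399, 433 and 59.5 CPM in the 4 WT runs. The last WT run lay within the range of the Usf1-KO runs, the first just above it, and the middle WT runs far above it. Cyp4a10, a fatty acid omega-hydroxylase driven by the lipid sensor PPARA, averaged 12.6, 30.1, 37.99 and 17.8 CPM in the Usf1-KO runs and 667, 41.7, 13.05 and 669 CPM in the WT runs. Its WT runs were thus high where those of Srebf1 were low. The Nr2f2-KO pool was split as well, with Lpin1 at 322.4, 22.1, 20.9 and 196.7 CPM in its runs. Levels that lead a result are therefore given by run.

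**Figure D1:**
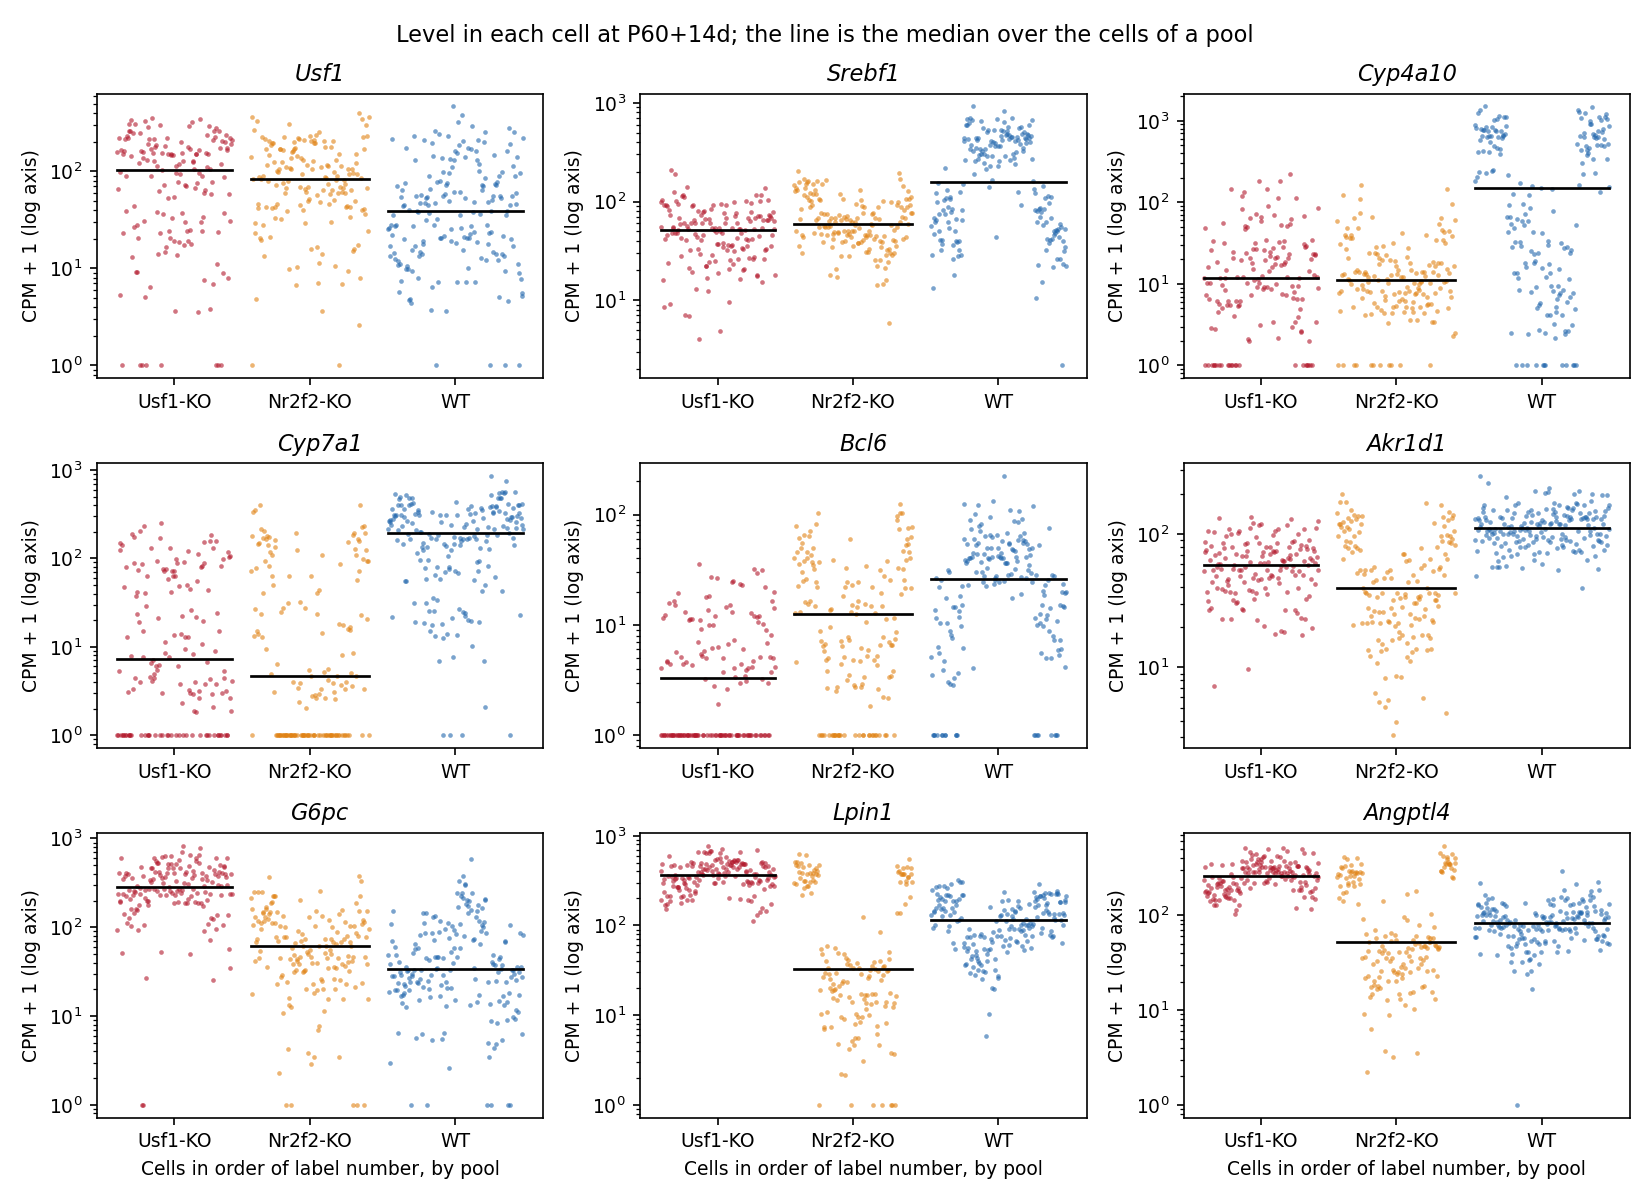
Level of 9 genes in each cell at P60+14d, as CPM + 1 on a log axis, with the cells of each pool in order of label number along the x axis (Usf1-KO, then Nr2f2-KO, then WT) and a line at the pool's median. Srebf1 and Cyp4a10 step in opposite directions along the WT cells, and the medians of G6pc, Lpin1 and Angptl4 are higher in Usf1-KO than in WT.

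Among WT cells the levels of Srebf1 and Cyp4a10 ran opposite to each other. Their Spearman correlation was -0.13 over the Usf1-KO cells, 0.14 over the Nr2f2-KO cells and -0.77 over the WT cells, a description over all cells of a pool, which share their runs. The highest Srebf1 level in any Usf1-KO cell was 206.1 CPM, and 89 of the WT cells lay above it. The highest Cyp4a10 level in any Usf1-KO cell was 220.3 CPM, and 84 WT cells lay above that.

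**Figure D2:**
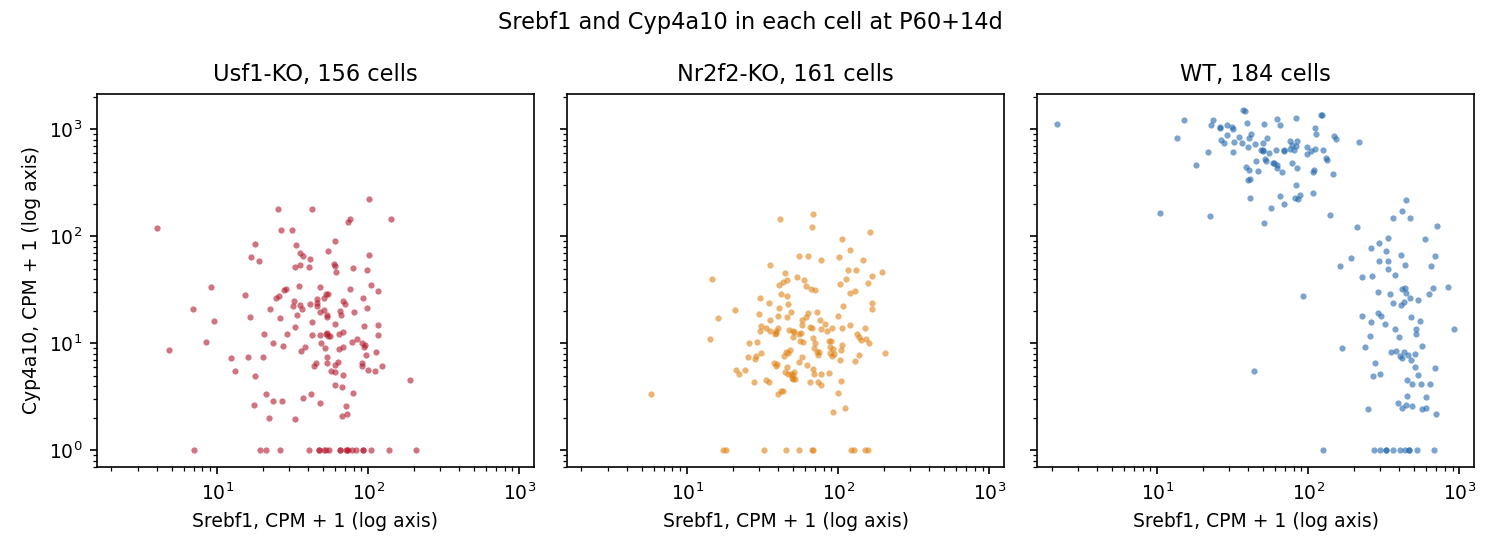
Srebf1 (x axis) against Cyp4a10 (y axis), both as CPM + 1 on log axes, 1 point per cell, for the pools labelled Usf1-KO, Nr2f2-KO and WT. WT cells spread from high Cyp4a10 with low Srebf1 to high Srebf1 with low Cyp4a10, and 0 Usf1-KO cells reach the levels that 89 WT cells have for Srebf1 or 84 for Cyp4a10.

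The pools also differed in lobule position, read from the share of pericentral list counts among the summed pericentral and periportal list counts. Of the Usf1-KO cells 42.3% (exact binomial interval 34.45 to 50.46) lay above the median share of all P60+14d cells, on the pericentral side, of the Nr2f2-KO cells 32.9% (25.73 to 40.75) and of the WT cells 71.2% (64.07 to 77.62). The score is a range, and 14 Usf1-KO, 17 Nr2f2-KO and 18 WT cells lay within 5 points of the cut. Over the runs, the pericentral share was between 35.9% and 46.2% in Usf1-KO and between 58.7% and 78.3% in WT. Whether cells of other positions were picked or the position genes themselves moved cannot be told apart. Levels were therefore also averaged with equal weight over 4 classes of position, cut at the quartiles of the score, an alternative chosen after seeing the data.

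Usf1 itself differed less once position was held. It averaged 181.1, 164.1, 68.2 and 15.5 CPM from the most periportal to the most pericentral class in Usf1-KO cells and 179.2, 127.5, 58.4 and 20.1 CPM in WT cells. The pool means differed by 0.75 on the log2 scale (levels with 1 CPM added, as for every log2 value of pools below), and the means over classes by 0.15. Its Spearman correlation with Cyp2e1, a pericentral enzyme gene, was -0.74 over Usf1-KO cells and -0.77 over WT cells. In separate bulk libraries of P60, those labelled CV held CD73+ cells and those labelled PV held CD324+ cells. Usf1 had 7.15 and 6.90 CPM in the CV libraries and 37.01 and 37.04 CPM in the PV libraries (log2 -2.40 ± 0.121 SE, edgeR adjusted p = 4.23e-09, n = 2 each). The bulk fit also held 2 libraries labelled ML, which share in the estimate of spread.

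**Figure D3:**
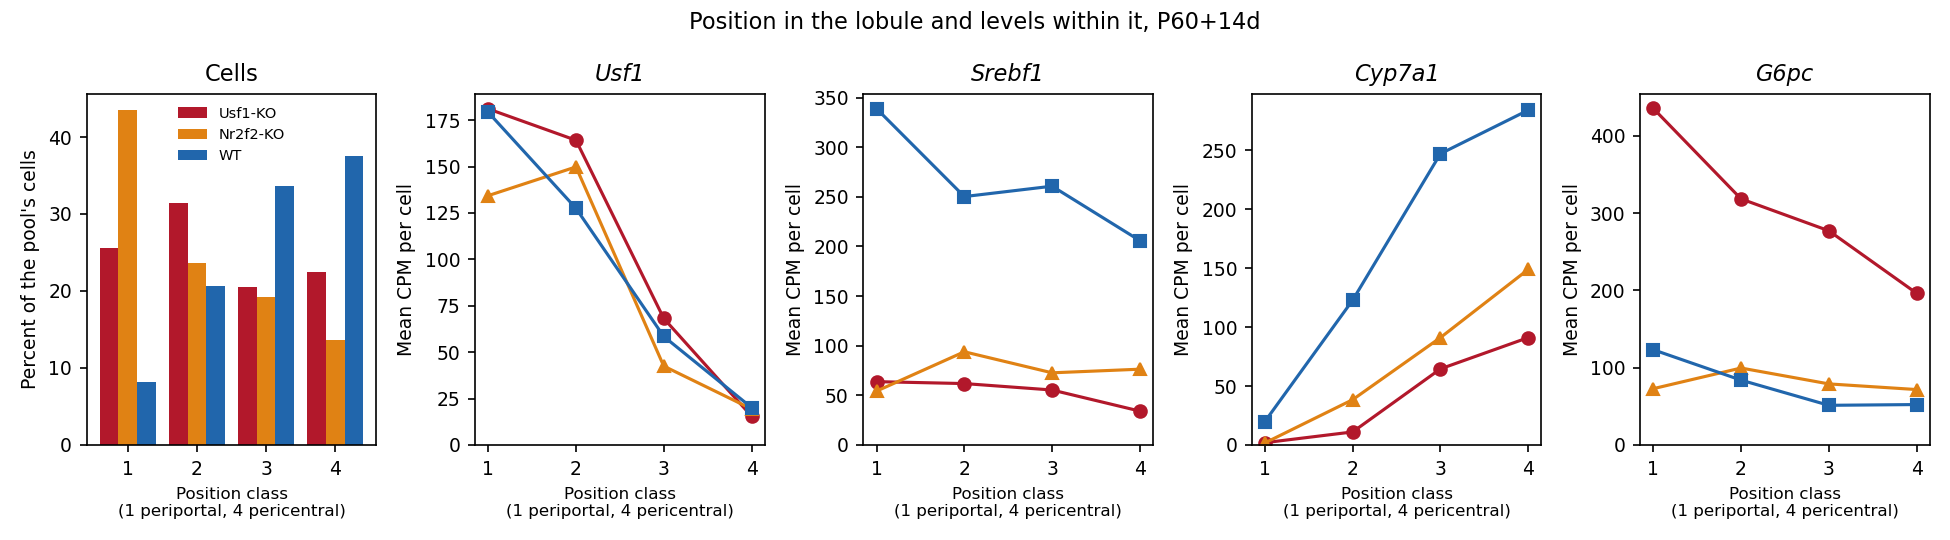
The first panel gives the percent of each pool's cells in 4 position classes, from 1 (most periportal) to 4 (most pericentral), and the other panels the mean CPM per cell of Usf1, Srebf1, Cyp7a1 and G6pc in each class for Usf1-KO, Nr2f2-KO and WT cells. Srebf1 and Cyp7a1 lie lower in Usf1-KO than in WT in every class, and G6pc lies higher in every class.

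Of 8098 genes averaging at least 5 CPM over the 3 pools, 91 (1.12%) were at least 2-fold higher and 97 (1.20%) at least 2-fold lower in Usf1-KO than in WT. Against Nr2f2-KO, 86 (1.06%) were at least 2-fold higher and 1.57% at least 2-fold lower in Usf1-KO. The median log2 difference over all these genes was -0.07 against WT and 0.10 against Nr2f2-KO. With equal weight for position, 83 (1.02%) were higher and 61 (0.753%) lower than in WT, and 70 of the 91 and 51 of the 97 were among them. When each run of WT cells served alone as the WT side, the number of higher genes was 1.93 to 3.14 times as large and that of lower genes 1.14 to 2.57 times.

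Lower in Usf1-KO, the 12 genes with the largest differences were C1rb, Cyp4a10, Mup9, Cyp4a14, Cyp26a1, Cyp7a1, Bcl6, Gm6484, Srebf1, Cyp2c38, Hamp2 and Orm3. Of these, 6 were also at least 1.5-fold lower than in Nr2f2-KO cells (C1rb, Mup9, Bcl6, Gm6484, Cyp2c38 and Orm3), against 3.77% of all genes measured, but only for Gm6484 and Orm3 did the Usf1-KO runs lie below all Nr2f2-KO runs. The 4 Usf1-KO runs all lay below the 4 WT runs for 5 of the 12 (Cyp7a1, Bcl6, Gm6484, Hamp2 and Orm3), against 6.37% of all genes. For the other 7, Srebf1 among them, the runs overlapped. Averaged over position classes, all 12 were at least 1.5-fold lower, against 4.14% of all genes. The 12 were chosen on these same Usf1-KO and WT cells, so these counts describe them and nothing is read from their distance to the shares of all genes. C1rb, Mup9, Cyp2c38 and Orm3 have close relatives in the genome, and how shared reads were counted is not stated, so the family member is uncertain.

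Cyp7a1 averaged 37.6 CPM in Usf1-KO cells, 47.7 CPM in Nr2f2-KO cells and 216.8 CPM in WT cells. Over cells the lowest, median and highest levels were 0, 6.33 and 253.3 CPM in Usf1-KO, and the highest in WT was 852 CPM. Its run means were 45.9, 38.1, 28.2 and 38.3 CPM in Usf1-KO and 276.4, 98.5, 151.04 and 341 CPM in WT, with no overlap. From periportal to pericentral it stood at 1.91, 11.03, 64.5 and 91.1 CPM in Usf1-KO cells, against 19.9, 122.8, 247.1 and 284.1 CPM in WT cells. The log2 difference was -2.50 over all cells and -1.97 over position classes, also with Cyp7a1 left out of the position score. The difference from Nr2f2-KO was -0.33, and the Nr2f2-KO runs spread from 8.58 to 95.6 CPM. Akr1d1, which reduces a bile acid precursor, averaged 59.8, 59.6, 61.1 and 62.7 CPM in the Usf1-KO runs, 95.4, 23.6, 34.8 and 68.8 CPM in the Nr2f2-KO runs and 111.8, 106.5, 122.8 and 121.1 CPM in the WT runs. The Usf1-KO runs lay below the WT runs and within the spread of the Nr2f2-KO runs.

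Srebf1 averaged 54.8 CPM in Usf1-KO cells, 70.1 CPM in Nr2f2-KO cells and 244.3 CPM in WT cells, a log2 difference from WT of -2.14, and of -2.27 over position classes. The lowest, median and highest cells had 2.99, 50.9 and 206.1 CPM in Usf1-KO and 1.18, 156.9 and 919 CPM in WT. As given above, its Usf1-KO and WT runs overlapped, and only the middle WT runs lay far above the Usf1-KO runs.

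Bcl6, a transcriptional repressor that in liver opposes PPARA, averaged 5.32 CPM in Usf1-KO cells, 21.1 CPM in Nr2f2-KO cells and 31.9 CPM in WT cells. It was counted in 55.1% of Usf1-KO, 81.99% of Nr2f2-KO and 89.7% of WT cells, and in 37.2%, 68.9% and 83.7% once every cell was thinned to 200000 counts. Run means were 3.50, 6.10, 4.62 and 7.05 CPM in Usf1-KO, 32.8, 8.34, 6.99 and 35.8 CPM in Nr2f2-KO and 11.9, 49.9, 50.9 and 15.2 CPM in WT. The Usf1-KO runs lay below all WT runs, while the middle Nr2f2-KO runs were close to the highest Usf1-KO runs. Over the position classes it had 5.55, 4.07, 5.96 and 6.22 CPM in Usf1-KO cells and 44.2, 32.1, 25.8 and 34.7 CPM in WT cells, lower in Usf1-KO in each class.

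Because USF1 binds the letters CACGTG, the 250 bases before each RefSeq start (GRCm38.p6) were searched for them. The motif is its own reverse complement, so 1 search reads both strands. They were present for 644 of 6091 measured genes with an entry (10.6%), for 11 of the 68 genes with an entry that were at least 2-fold lower in Usf1-KO than in WT (16.2%) and for 1 of the 52 that were at least 2-fold higher (1.92%, Wsb1). These shares are descriptions, and a match is not a bound site. The lower genes with a match were AA465934, Acot4, Alad, Aldh3a2, Bcl6, Ildr2, Nr1i3, Rab20, Sgk1, Slc16a12 and Snx8. The entries of Srebf1, G6pc, Lpin1 and Usf1 held no match in this window, and Cyp7a1 and Usf2 had no entry. A gene with several entries was counted if any of them matched. The other Bcl6 entry, at chr16:23981284-23981533, held no match. The windows of 3 lower genes described in the text are shown with the motif in capitals: Bcl6 at chr16:23988853-23989102 on the minus strand, Nr1i3 (the drug-sensing receptor CAR) at chr1:171213720-171213969 on the plus strand, and Alad (a heme synthesis enzyme) at chr4:62520064-62520313 on the minus strand.
Bcl6: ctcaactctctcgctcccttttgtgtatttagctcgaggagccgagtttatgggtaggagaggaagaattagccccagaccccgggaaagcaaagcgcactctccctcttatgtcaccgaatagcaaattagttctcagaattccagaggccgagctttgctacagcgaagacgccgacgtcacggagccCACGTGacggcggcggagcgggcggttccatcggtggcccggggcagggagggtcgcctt
Nr1i3: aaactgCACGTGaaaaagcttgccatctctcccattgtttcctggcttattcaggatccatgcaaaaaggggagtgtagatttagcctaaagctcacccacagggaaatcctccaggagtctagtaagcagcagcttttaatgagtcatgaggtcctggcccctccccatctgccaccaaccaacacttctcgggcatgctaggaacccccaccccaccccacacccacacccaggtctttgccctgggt
Alad: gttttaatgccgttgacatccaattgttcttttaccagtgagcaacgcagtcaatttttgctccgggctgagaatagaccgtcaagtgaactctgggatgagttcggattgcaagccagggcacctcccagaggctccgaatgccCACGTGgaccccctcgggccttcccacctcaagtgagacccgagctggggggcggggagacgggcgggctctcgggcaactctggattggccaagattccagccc
Nr1i3 averaged 49.4 CPM in Usf1-KO cells, 57.01 CPM in Nr2f2-KO cells and 128.2 CPM in WT cells. Alad averaged 145.2 CPM in Usf1-KO cells and 293.6 CPM in WT cells. The runs of Alad stood at 134.5, 146.2, 134.02 and 165.9 CPM in Usf1-KO and, lower still, at 119.8, 93.3, 92.04 and 130.6 CPM in Nr2f2-KO. For both genes the 4 Usf1-KO runs lay below the 4 WT runs.

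Higher in Usf1-KO, the 12 genes with the largest differences were Gm15920, Tff3, Spp1, Moxd1, Gm6166, Cib3, Txnip, G6pc, Saa2, Scara5, Cdkn1a and Igfbp1. Of these, 6 (Tff3, Gm6166, Cib3, Txnip, G6pc and Igfbp1) were also at least 1.5-fold higher than in Nr2f2-KO cells, against 4.63% of all genes measured, but only for G6pc and Igfbp1 did the Usf1-KO runs lie above all Nr2f2-KO runs. The Usf1-KO runs lay above all WT runs for 10 of the 12, Gm15920 and Gm6166 being the exceptions, against 3.49% of all genes. All 12 were at least 1.5-fold higher over position classes, against 3.77% of all genes. Here too the same cells chose the 12, and nothing is read from these shares. Gm15920, Tff3, Spp1, Moxd1, Gm6166, Cib3, Scara5 and Cdkn1a averaged below 10 CPM in WT cells. They passed the bound of 10 CPM through the knockout pools.

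**Figure D4:**
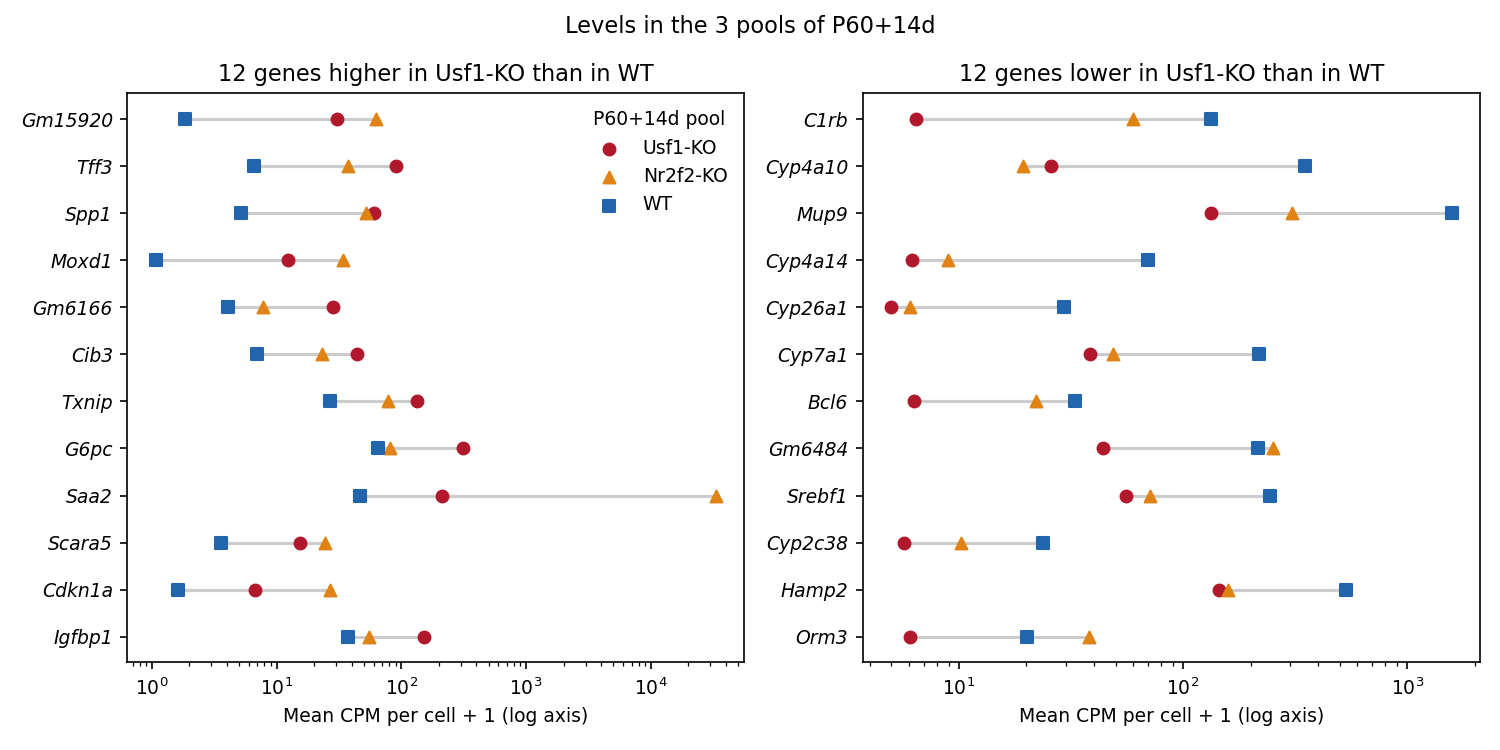
Mean CPM per cell + 1, on a log axis, of the 12 genes with the largest higher and the 12 with the largest lower levels in Usf1-KO than in WT, with a point for the Usf1-KO, Nr2f2-KO and WT pools of P60+14d. For Srebf1, Cyp7a1, Cyp4a10 and Hamp2 the Nr2f2-KO point lies nearer the Usf1-KO point, and for G6pc and Igfbp1 it lies nearer the WT point.

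G6pc encodes the catalytic subunit of glucose-6-phosphatase, which releases glucose from the hepatocyte and is held down by insulin. It averaged 312.7 CPM in Usf1-KO cells, 80.2 CPM in Nr2f2-KO cells and 64.3 CPM in WT cells. Its run means were 228.96, 365, 374 and 282.9 CPM in Usf1-KO, 131.1, 49.2, 54.2 and 84.9 CPM in Nr2f2-KO, and 33.9, 51.7, 144.2 and 27.2 CPM in WT. No Usf1-KO run overlapped a run of either other pool. Of the Usf1-KO cells 93.6% lay above the upper quartile of WT cells. It was higher in every position class, with 436, 318.5, 277.2 and 196.4 CPM in Usf1-KO cells and 123.2, 83.9, 51.3 and 52.3 CPM in WT cells. G6pc is itself on the periportal list that enters the position score.

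Igfbp1, a secreted IGF-binding protein gene repressed by insulin, averaged 149.9 CPM in Usf1-KO cells, 53.7 CPM in Nr2f2-KO cells and 36.5 CPM in WT cells, and its runs of 127.1 to 163.02 CPM in Usf1-KO lay above those of 11.2 to 91.96 CPM in WT. Lpin1, a phosphatidate phosphatase and PPARA coactivator, averaged 379.6 CPM in Usf1-KO cells, 141.7 CPM in Nr2f2-KO cells and 124.04 CPM in WT cells. The highest WT cell had 322.6 CPM of Lpin1, below the Usf1-KO median of 366 CPM. Angptl4, a lipoprotein lipase inhibitor, averaged 266.5 CPM in Usf1-KO cells, 129.4 CPM in Nr2f2-KO cells and 88.2 CPM in WT cells, and its lowest Usf1-KO cell, at 101.4 CPM, lay above the WT median of 81.8 CPM. The Nr2f2-KO runs spread from 20.9 to 322.4 CPM for Lpin1 and from 33.3 to 224.99 CPM for Angptl4, so the highest of them reached the Usf1-KO runs. Pck1, the gluconeogenic enzyme, averaged 5537 CPM in Usf1-KO cells, 2993 CPM in Nr2f2-KO cells and 3279.6 CPM in WT cells, but its runs overlapped, at 3880.3 to 9597 CPM in Usf1-KO and 2245 to 5067 CPM in WT.

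Txnip, a glucose-induced brake on glucose uptake, averaged 132.6 CPM in Usf1-KO cells, 76.95 CPM in Nr2f2-KO cells and 25.6 CPM in WT cells. Its run means were 70.6, 161.9, 158.1 and 139.7 CPM in Usf1-KO, 137.5, 7.91, 7.47 and 153.4 CPM in Nr2f2-KO and 12.1, 16.9, 58.7 and 14.7 CPM in WT, so the outer Nr2f2-KO runs were as high as the Usf1-KO runs. Tff3, a secreted trefoil peptide, averaged 89.3 CPM in Usf1-KO cells, 36.4 CPM in Nr2f2-KO cells and 5.59 CPM in WT cells. Spp1, the secreted osteopontin that bile duct cells also make, averaged 59.7 CPM in Usf1-KO cells, 50.7 CPM in Nr2f2-KO cells and 4.22 CPM in WT cells. The 9 cholangiocyte markers, Spp1 among them, summed to 75.3 CPM in Usf1-KO, 67.1 CPM in Nr2f2-KO and 16.6 CPM in WT cells, with ranges over cells of 0 to 1855.9, 0 to 1329.3 and 0 to 229.2 CPM, and 2, 5 and 4 of the 9 were at 0 in these pools. Their part in the result was not tested. Scara5, a ferritin receptor gene, averaged 14.4 CPM in Usf1-KO cells, 23.6 CPM in Nr2f2-KO cells and 2.59 CPM in WT cells. Cdkn1a, the p53-induced cell cycle inhibitor, averaged 5.67 CPM in Usf1-KO cells, 25.9 CPM in Nr2f2-KO cells and 0.614 CPM in WT cells. Saa2, an acute phase protein gene, averaged 212.1 CPM in Usf1-KO cells, 33557 CPM in Nr2f2-KO cells and 45.6 CPM in WT cells.

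A stricter reading asked which genes differed by at least 1.5-fold in each pairing of a Usf1-KO run with a WT run. There were 26 such higher genes (0.321%) and 18 lower ones (0.222%), and 25 and 17 of them were past 1.5-fold over position classes. The same cells chose these genes, so nothing is read from the 25 and 17. The rule of run pairings was chosen after seeing the data, and so were the genes named from it. The higher genes were led by Tff3, Spp1, Moxd1, Cxcl14, Obp2a, Cib3, G6pc and Scara5, and included Lpin1, Angptl4, Chac1, Sds and Slc25a47. In WT cells Moxd1 averaged 0.0701 CPM, Cxcl14 0.360 CPM, Obp2a 0.552 CPM, Chac1 2.16 CPM, Scara5 2.59 CPM and Spp1 4.22 CPM. Genes this low in WT passed the floor of 5 CPM through the knockout pools. Their log2 values rest partly on the 1 CPM added, so nothing is read from the number or order of the higher genes. Slc25a47, a liver mitochondrial carrier gene, averaged 700.0 CPM in Usf1-KO cells, 351 CPM in Nr2f2-KO cells and 347 CPM in WT cells. The lower genes were Cyp7a1, Bcl6, Gm6484, Inmt, Lect1, Tbx3, Rnf43, Cyp2c50, Ces1d, Slc16a12, Ccdc141, Slc25a37, Mertk, Cyp2c68, Cyp3a13, Akr1d1, AW549877 and Mn1. Inmt, an indolethylamine methyltransferase gene, averaged 394 CPM in Usf1-KO cells, 449.6 CPM in Nr2f2-KO cells and 1252 CPM in WT cells. Ces1d, a lipid-cleaving carboxylesterase gene, averaged 263.5 CPM in Usf1-KO cells, 280.8 CPM in Nr2f2-KO cells and 565 CPM in WT cells. Tbx3, a target of the pericentral Wnt signal, averaged 14.1 CPM in Usf1-KO cells, 23.1 CPM in Nr2f2-KO cells and 40.7 CPM in WT cells, with a log2 difference over position classes of -0.84. Tbx3 is itself on the pericentral list that enters the position score. Rnf43, a Wnt feedback gene, averaged 10.1 CPM in Usf1-KO cells, 9.73 CPM in Nr2f2-KO cells and 27.7 CPM in WT cells. Of these genes, 7 higher (G6pc, Chac1, Gstp2, Cryl1, Hsbp1l1, Slc25a47 and Nabp1) and 4 lower (AW549877, Cyp3a13, Tbx3 and Gm6484) also stood clear of every Nr2f2-KO run. The share of all genes that did so is not given, so nothing is read from these counts. For Cryl1 the log2 difference from WT was 1.03 over all cells but 0.10 over position classes.

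Gene lists are described by how many members averaging at least 5 CPM were 1.5-fold from WT. In Usf1-KO against WT, 3.91% of all genes passed this bound upward and 4.98% downward. For Nr2f2-KO against WT the share of all genes is not given, and the median log2 over all genes was -0.15. Nothing is therefore read from the list counts of Nr2f2-KO against WT below. Of 21 fatty acid and triglyceride synthesis genes, 4 were higher (Acly, Lpin1, Lpin2 and Insig2) and 4 lower (Srebf1, Fasn, Scd1 and Mlxipl), with a median log2 of -0.11. Acly, which makes acetyl-CoA for fat synthesis, averaged 197.9 CPM in Usf1-KO cells, 171.01 CPM in Nr2f2-KO cells and 119.8 CPM in WT cells, and over position classes its log2 difference was 0.24. Insig2, an inhibitor of SREBP processing, averaged 128.6 CPM in Usf1-KO cells and 70.8 CPM in WT cells, and it was lower than in Nr2f2-KO cells by a log2 difference of -1.06. Mlxipl, the glucose-sensing factor ChREBP, averaged 98.98 CPM in Usf1-KO cells, 98.7 CPM in Nr2f2-KO cells and 150.8 CPM in WT cells, and its Usf1-KO runs lay below its WT runs. Of 23 cholesterol synthesis and uptake genes, 6 were higher and 0 lower (median 0.31), and over position classes 2 were higher. Nr2f2-KO against WT had 13 of the 23 higher and 0 lower. Sqle, the squalene epoxidase, averaged 62.5 CPM in Usf1-KO cells, 77.6 CPM in Nr2f2-KO cells and 29.8 CPM in WT cells. Of 25 bile acid genes, 2 were higher (Cyp7b1 and Cyp39a1) and 3 lower (Cyp7a1, Akr1d1 and the uptake carrier Slco1b2), with a median of -0.15. Nr2f2-KO against WT had 1 bile acid gene higher and 10 lower, and 2 fatty acid and triglyceride synthesis genes higher and 9 lower.

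Of 19 glycolysis and gluconeogenesis genes, 2 were higher (G6pc and Pck1) and 2 lower, among them the glycogen-targeting subunit Ppp1r3b, with a median of 0.14. Of 20 fatty acid oxidation genes, 1 was higher (Acadvl) and 6 lower (Ehhadh, Acaa1b, Cyp4a10, Cyp4a14, Acot1 and Vnn1), with a median of -0.24. Nr2f2-KO against WT had 0 of the 20 higher and 14 lower. Ehhadh, a peroxisomal enzyme gene, averaged 168.1 CPM in Usf1-KO cells, 97.8 CPM in Nr2f2-KO cells and 357 CPM in WT cells, and its Usf1-KO runs lay below its WT runs, while those of Cyp4a10, Cyp4a14 and Acot1 overlapped. Of 25 respiratory chain genes, 0 passed in either direction (median 0.06).

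Of 25 pericentral genes 1 was higher and 14 lower (median -0.73), and of 28 periportal genes 14 were higher and 1 lower (median 0.61). Over position classes, which these lists define, the counts were 3 higher and 5 lower for pericentral genes, and 3 higher and 1 lower for periportal genes. Cyp2e1 averaged 4150.4 CPM in Usf1-KO cells, 2652 CPM in Nr2f2-KO cells and 9814 CPM in WT cells. Cdh1, which encodes the periportal surface protein CD324, averaged 31.2 CPM in Usf1-KO cells, 29.1 CPM in Nr2f2-KO cells and 9.64 CPM in WT cells. Of 27 drug-metabolising enzymes 2 were higher and 10 lower, and over position classes 2 and 5. In Nr2f2-KO against WT, over all cells, 3 of these enzymes were higher and 17 lower. There 0 pericentral genes were higher and 22 lower, and 9 periportal genes were higher and 1 lower. Of 27 hepatocyte transcription factors 1 was higher and 6 lower, among them Prox1 with 71.5 CPM in Usf1-KO cells, 119.7 CPM in Nr2f2-KO cells and 145.8 CPM in WT cells.

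**Figure D5:**
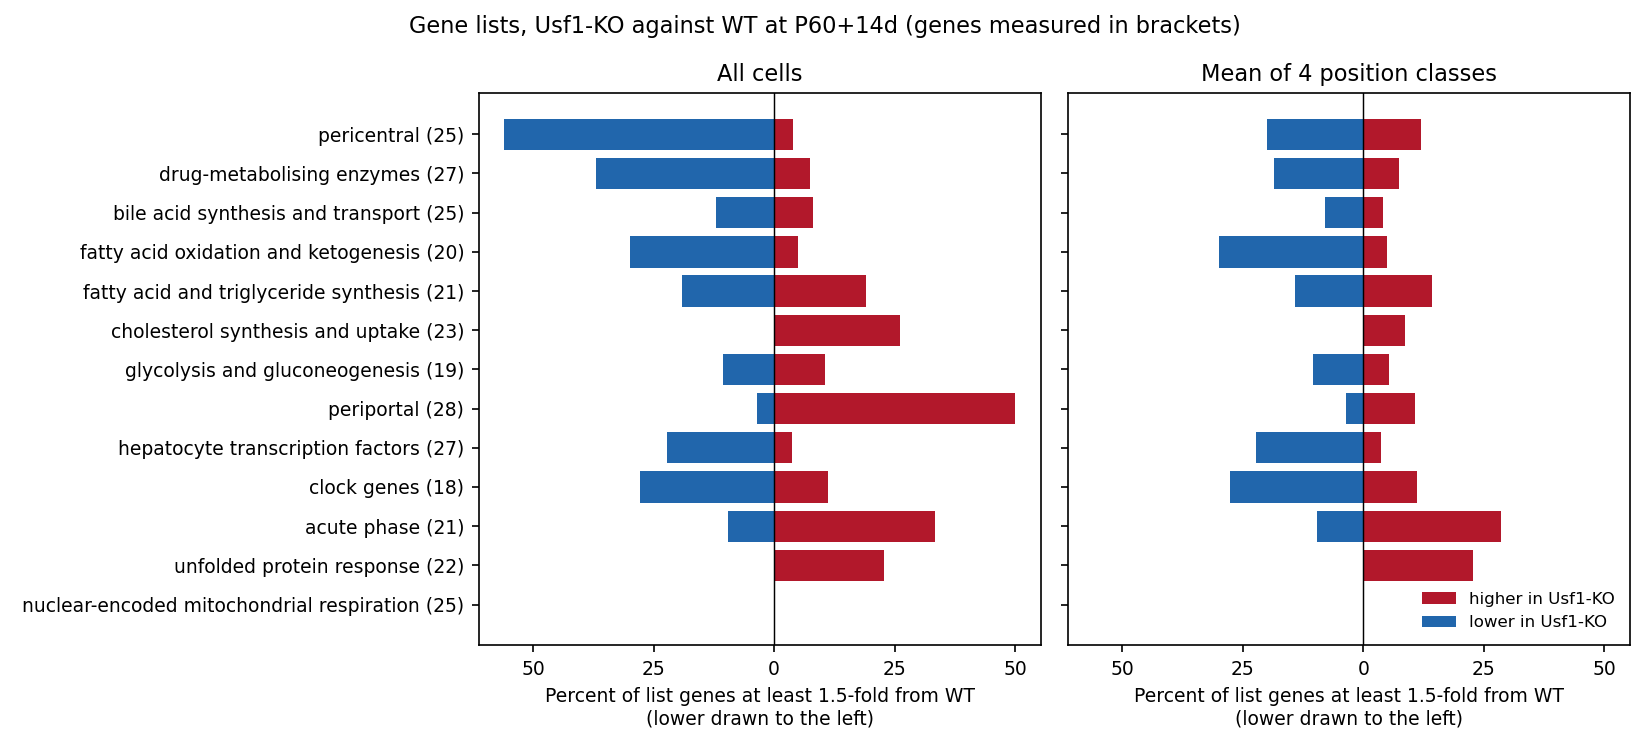
Percent of measured list genes at least 1.5-fold higher (to the right) or lower (to the left) in Usf1-KO than in WT, over all cells and as the mean of 4 position classes, with the number of genes measured in brackets. Pericentral genes go from 14 of 25 lower to 5 over position classes, and fatty acid oxidation genes stay at 6 of 20.

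Of 18 clock genes 2 were higher (Nr1d1 and Nfil3) and 5 lower, among them Per2, Per3 and Tef. Nr2f2-KO against WT had 3 of the 18 higher and 10 lower. Per3, a period gene, averaged 27.3 CPM in Usf1-KO cells, 14.7 CPM in Nr2f2-KO cells and 57.2 CPM in WT cells, and Nr1d1, a clock repressor, averaged 35.9 CPM in Usf1-KO cells, 7.36 CPM in Nr2f2-KO cells and 19.46 CPM in WT cells. Clock genes cycle over the day, and their part in the other differences was not tested. Of 21 acute phase genes 7 were higher and 2 lower than in WT, and 0 were higher and 19 lower than in Nr2f2-KO. Of 22 unfolded protein response genes 5 were higher and 0 lower, among them Creld2 with 184.4 CPM in Usf1-KO cells, 151.5 CPM in Nr2f2-KO cells and 99.1 CPM in WT cells, whose runs overlapped. Nr2f2-KO against WT had 9 of the 22 higher and 0 lower. Of 20 female-biased genes 6 passed the floor, and of these 1 was higher and 5 lower. The runs of Cyp4a14, Acot3, Fmo2 and Abcd2 among the lower ones overlapped. Acot3, Fmo2 and Abcd2, below 5 CPM in every Usf1-KO run, passed through the other pools, so nothing is read from this count. Of 15 fetal liver genes 5 passed the floor, and of these 4 were higher (Fabp5, Sox9, Spp1 and Tff3) and 0 lower. Spp1, low in WT cells, passed through the knockout pools, so nothing is read from this count either. In Nr2f2-KO 3 of the 5 were higher than in WT and 0 lower. All 15 summed to means of 11779.6 CPM in Usf1-KO, 8999.2 CPM in Nr2f2-KO and 10688.5 CPM in WT cells. Fabp5, a fatty acid binding protein gene, averaged 299.6 CPM in Usf1-KO cells, 88.4 CPM in Nr2f2-KO cells and 103.8 CPM in WT cells.

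The knockout of the earlier stage gave the one comparison with more than 1 pool on each side. At P12+40d Srebf1 averaged 17.03 CPM in Usf1-KO cells and 76.6 CPM in WT cells, with runs from 11.8 to 20.9 CPM in Usf1-KO and from 51.04 to 97.2 CPM in WT. Cyp7a1 averaged 22.9 CPM in Usf1-KO cells and 78.8 CPM in WT cells at that stage, with runs from 1.97 to 49.1 CPM in Usf1-KO and from 56.1 to 111.8 CPM in WT. Over both stages, in a fit of 6 pools (Usf1-KO, Nr2f2-KO and WT at each stage, the Nr2f2-KO pools entering to share the estimate of spread) with stage as a block and 2 residual degrees of freedom, edgeR called 0 of 16183 genes in either direction (0% each), with 823 at an unadjusted p under 0.05. DESeq2 called 91 higher and 70 lower. Srebf1 had a log2 difference of -2.10 ± 0.22 SE (edgeR adjusted p = 0.49) and Cyp7a1 one of -2.01 ± 0.364 (edgeR adjusted p = 0.829), each with a lower pool mean in Usf1-KO at both stages. At P60+14d the Usf1-KO and WT runs of Srebf1 overlapped, while those of Cyp7a1 did not. G6pc, higher at P60+14d, averaged 154.3 CPM in Usf1-KO cells and 355 CPM in WT cells at P12+40d. Lpin1 averaged 51.3 CPM in Usf1-KO cells and 123.2 CPM in WT cells and Bcl6 37.2 CPM in Usf1-KO cells and 51.1 CPM in WT cells there. Each label had 1 pool at each stage, so the spread behind these p-values is how far the differences between labels changed between stages. A difference present at 1 stage only, or reversed at the other, adds to that spread. No label names an animal, and part of the spread may be technical.

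Libraries outside the knockout series place the leading genes. In bulk, Cyp7a1 had 366 and 370.2 CPM in the CV libraries and 57.4 and 44.98 CPM in the PV libraries (log2 2.85 ± 0.0937, edgeR adjusted p = 5.96e-11, n = 2 each). G6pc had 273.9 and 286.6 CPM in the CV libraries and 442 and 476 CPM in the PV libraries (log2 -0.71 ± 0.0637, edgeR adjusted p = 1.46e-06, n = 2 each). Of 12475 genes tested over maturation, 10.5% were higher and 10.0% lower in the P18, P24 and P30 pools than in the P0, P3 and P6 pools. These counts rest on single pools, with 0.21 times as many higher and 0.17 times as many lower genes without P24, 0.28 and 0.34 without P3, 0.35 and 0.32 without P30, and 0.61 and 0.57 without P18. Each age was 1 pool, so the spread behind the p-values over ages is the difference between the 3 ages of a set. It does not measure variation between animals of 1 age. Of the 12 genes higher in Usf1-KO, 9 could be tested there, and 1 was higher and 3 were lower at the later ages. Tff3 had 42.2, 75.96 and 40.6 CPM at P18, P24 and P30, and 2699, 634 and 77.3 CPM at P0, P3 and P6 (log2 -4.42, edgeR adjusted p = 0.0383, n = 3 each). Its edgeR adjusted p was 0.112 without P18, 0.116 without P24, 0.125 without P30 and 0.0784 without P3. The higher one, Saa2, was not called without P24, P3 or P6. Of the 12 genes lower in Usf1-KO, 9 could be tested, and 2 (Bcl6 and Orm3) were higher and 0 lower at the later ages, Orm3 not without P24, P30 or P3. Bcl6 had 9.21, 8.17 and 10.4 CPM at P18, P24 and P30, and 2.78, 2.34 and 3.83 CPM at P0, P3 and P6 (log2 1.63, edgeR adjusted p = 0.00935, n = 3 each), and its edgeR adjusted p lay between 0.0111 and 0.0427 with 1 pool left out.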

How the data were processed

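The 156 cells labelled Usf1-KO, 161 labelled Nr2f2-KO and 184 labelled WT at P60+14d, all hepatocytes of Rosa-Cas9 mice, came from 1 Smart-seq3 table, with 63 Usf1-KO, 165 Nr2f2-KO and 164 WT cells of P12+40d. The authors deposited whole-number counts per gene, with no normalization, judged from the file headers and values. The submitters' processing notes name HISAT2 2.1.0 and featureCounts 2.0.0 among others, with no role; strand use is not given in the sources. ERCC entries (22 counts) were left out, and 1571 per-sample columns of the tables read were not used.

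CPM per cell were averaged over cells. Log2 differences used a pseudocount of 1 CPM, in genes averaging at least 5 CPM. The genes named were Usf1, Usf2, Srebf1, Cyp7a1 and Nr2f2, the 12 largest differences each way (at least 10 CPM, seen in 20% of cells, at least 1.5-fold without the 5% highest cells) and up to 4 members per list; others were chosen after their values were seen, and 2 list genes are counted but not reported here. Pool sums, bulk libraries and age pools were tested with edgeR 4.0.16 (quasi-likelihood, two-sided, Benjamini-Hochberg at 0.05), with DESeq2 1.42.0 as an alternative; scripts were tested on simulated data. Intervals are exact, at 95%. Members and lists were chosen with earlier results of these data known. No doublet caller was run, as cells were picked singly per the labels.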

Additional observations from a re-analysis of the deposited data

Results flagged for a closer look

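Some genes among the largest differences at P60+14d were at least 2-fold different in the opposite direction at P12+40d, as log2 Usf1-KO against WT. The difference between stages was not tested. C1rb stood at -4.38 at P60+14d and 1.06 at P12+40d, and Orm3 at -1.74 and 1.25. Gm15920 stood at 4.04 at P60+14d and -2.83 at P12+40d, Moxd1 at 3.54 and -2.72, Gm6166 at 2.80 and -1.04, and G6pc at 2.27 and -1.20. Pooled counts put Gm15920 at 0.821 CPM in WT at P60+14d and at 0.935 CPM in Usf1-KO at P12+40d. In the same order Moxd1 stood at 0.0727 and 2.27 CPM and Gm6166 at 2.69 and 0.899 CPM. The log2 values of Gm15920, Moxd1 and Gm6166 therefore rest partly on the 1 CPM added. At P60+14d the Usf1-KO runs of G6pc, Moxd1 and Orm3 stood clear of all WT runs, while those of C1rb, Gm15920 and Gm6166 overlapped them.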

How the results depend on the processing

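No paired analysis was possible because the label numbers name single cells and pair no pools. Counts of genes at least 2-fold from WT depended on how low levels entered. A pseudocount of 10 CPM gave 0.38 times as many higher and 0.42 times as many lower genes, an average of at least 1 CPM 1.53 and 1.53 times, and one of at least 20 CPM 0.51 and 0.56 times. Against Nr2f2-KO the same settings gave 0.49 and 0.48, 1.67 and 1.59, and 0.63 and 0.46 times as many. Equal weight for position gave 0.63 times as many lower genes. With 1 run of WT cells as the WT side, chosen after seeing the data, the higher genes were 1.93, 2.45, 2.35 and 3.14 times as many in the order of the runs, and the lower ones 2.57 times for the last run. Pool sums, TMM factors, a pseudocount of 0.1 CPM, leaving out the highest cells and requiring 300000 counts kept these counts within 1.5 times. Over both stages, DESeq2 called 91 higher and 70 lower genes and edgeR on the 4 Usf1-KO and WT pools alone 6 and 5. Over the ages, leaving out 1 pool gave 0.21 to 1.301 times as many higher and 0.17 to 1.26 times as many lower genes, the lowest without P24, and Tff3 had edgeR adjusted p from 0.0147 to 0.125.

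With Nr2f2-KO in place of WT, log2 values turned to 0.14 (Usf2), 0.05 (Nr2f2), 0.41 (Cyp4a10), -1.03 (Gm15920), -1.46 (Moxd1), -7.30 (Saa2), -0.67 (Scara5), -2.01 (Cdkn1a), 0.00 (Mlxipl), -1.06 (Insig2), -0.34 (Idi1), -0.31 (Sqle), 0.12 (Akr1d1), -1.25 (Cyp39a1), 0.39 (Slco1b2), 0.50 (Acot1), 0.78 (Ehhadh), 0.85 (Per3), 0.40 (Per2), 1.18 (Cyp2a5), 0.65 (Cyp2e1), 0.13 (Hamp), 0.41 (Alad), 1.10 (Oat), -5.41 (Saa3), -6.64 (Lcn2), -0.76 (Asns) and -1.01 (Gdf15). Among cells of the pericentral side Acly turned to -0.28, Cyp39a1 to -0.60, Sds to -0.14 and Aldh1b1 to -1.27. Against the second WT run Mup9 turned to 1.14, Cyp2c38 to 0.68, Acot1 to 0.72, Oat to 0.46 and Mup20 to -0.12, and against the third C1rb to 0.08, Cyp4a10 to 0.87, Cyp4a14 to 0.49, Acot1 to 0.04 and Abcd2 to 0.91. Against the fourth WT run Usf2, at -0.40 against all WT cells, turned to 0.10, and among cells of the pericentral side Usf1 stood at 0.00; the cause was not tested. Each group at P60+14d is 1 pool, and at lower depth fewer cells show a low gene, as the thinned shares for Bcl6 do.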

Other observations

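C1rb averaged 2.72, 5.38, 6.60 and 6.9996 CPM in the 4 Usf1-KO label runs, 90.8, 4.94, 6.94 and 130.9 CPM in the Nr2f2-KO runs, and 156.2, 151.9, 5.08 and 216.8 CPM in the WT runs. Of the WT runs, the third was as low as the Usf1-KO runs. Mup9 spread from 110.02 to 181.8 CPM over the Usf1-KO runs, from 63.1 to 468 CPM over the Nr2f2-KO runs and from 59.6 to 3160.4 CPM over the WT runs. Gm6484 stood at 23.6 to 61.5 CPM in the Usf1-KO runs, below every Nr2f2-KO run (135.97 to 313.1 CPM) and every WT run (152.8 to 329.2 CPM). The Spearman correlation of Srebf1 with Bcl6 was -0.14 over Usf1-KO cells, 0.33 over Nr2f2-KO cells and 0.66 over WT cells. Both genes were higher in the middle WT runs than in the outer ones, so the WT value includes the split between runs. Cyp7a1 went with Cyp2e1 in each pool, with Spearman correlations of 0.72 over Usf1-KO, 0.76 over Nr2f2-KO and 0.64 over WT cells.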
